A study of Mus musculus with 8 samples.

Results

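The genes described here move, store and sense iron in the heart, together with a gene of iron-dependent cell death: Fth1, Ftl1, Tfrc, Slc40a1, Slc11a2, Ireb2, Aco1, Abcb8 and Acsl4. Members were all probe sets whose platform annotation carries 1 of these 9 symbols and no other. Of the 9 genes, 8 had such a probe set, out of 18194 genes in all, and these 8 had 23 probe sets. Ftl1 had none of its own, and its 3 shared probe sets are given apart.

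RNA from hearts of male mice aged 6 to 8 weeks was hybridised to 8 one-colour Affymetrix arrays, 2 for each of 4 groups. MT-/- mice are labelled as null for the metallothionein genes Mt1 and Mt2, which code for small metal-binding proteins, and MT+/+ mice as their wild types. The groups were MT-/- mice given doxorubicin (DOX, an anthracycline used against tumours whose main dose limit is heart damage), MT-/- mice given saline, MT+/+ mice given DOX and MT+/+ mice given saline. DOX was a single injection of 15 mg/kg into the peritoneal cavity, the saline volume was matched, and hearts were collected on day 4. The labels call the replicates biological and say nothing of pooling, strain background or the type of null allele.

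All 10 cardiomyocyte markers, among them the myosin gene Myh6 and the troponin gene Tnnt2, lay at percentile 97.2 or higher on every array. Array medians lay between 80.1 and 87.5, and Pearson r between arrays of 1 group was 0.976 to 0.984. Signal of the genes stated to be null was no check of the genotype labels, because no Mt1 or Mt2 probe set was called lower in MT-/-. The brighter Mt1 probe set read between 4667 and 12850 on MT-/- arrays and between 3722 and 9285 on MT+/+ arrays, and Mt2 read between 968 and 2218 on MT-/- arrays and between 452 and 2732 on MT+/+ arrays. Averaged over treatments that Mt1 probe set was called higher in MT-/- (+0.50, adjusted p 0.0422), Mt2 had +0.58 (adjusted p 0.301), and the dimmer Mt1 probe set had -0.09 (adjusted p 0.783), with -0.23 after DOX (adjusted p 0.849). Signal from an RNA does not show whether the protein was made. MT-/- and MT+/+ therefore mean arrays labelled so throughout.

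Cells take up transferrin-bound iron through the transferrin receptor, keep it in ferritin shells built of heavy and light chains, and release it through ferroportin. Iron regulatory proteins tie these steps together: in iron-poor cells they bind hairpins called iron-responsive elements, which stops ferritin mRNA from being translated and protects transferrin receptor mRNA from decay. In the heart, iron overload and DOX are both known to drive ferroptosis, a cell death in which iron feeds the peroxidation of membrane lipids. Arrays read mRNA levels, so control of ferritin at translation is outside these measurements.

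After DOX, averaged over both genotypes, 2 of the 8 measured iron genes changed. Fth1, the ferritin heavy chain that oxidises and stores iron, rose 1.28-fold, and Tfrc, the transferrin receptor, fell 3.32-fold. The other 6 genes did not pass the test. Each changed gene is 1 of 8, against backgrounds of 6.99% of all 13008 tested genes that were higher and 7.79% that were lower, and in all 14.8% of genes (13.9% of probe sets) were called. The median log2 change was -0.09 over the 8 genes, against -0.01 over all tested genes. Tests were made with limma on log2(intensity + 16) after quantile normalization, with Benjamini-Hochberg adjustment over 24751 probe sets and a threshold of adjusted p 0.05. For each gene the brightest tested probe set stands for it, and errors after ± are standard errors of the fit on 2 arrays per group.

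The stretches around the starts of these 2 genes are shown because they were the 2 genes called after DOX averaged over genotypes. RefSeq windows of build GRCm38.p6, from 250 bases before to 30 bases after a transcript start, were held for 6 of the 9 genes. Each of the 2 genes has 2 annotated starts. The windows printed, the first of Tfrc and the one of Fth1 that held a match, are chr19:9982396-9982675 for Fth1 and chr16:32608646-32608925 for Tfrc, both on the plus strand, 5′ to 3′. Capitals mark matches, on either strand, to 4 searched motifs: the GC box GGGCGG, the CCAAT box CCAAT, the core ACGTG bound by hypoxia-inducible factors and the core TGACNNNGC of antioxidant response elements. No 2 of these matches overlap in the windows printed.
Fth1: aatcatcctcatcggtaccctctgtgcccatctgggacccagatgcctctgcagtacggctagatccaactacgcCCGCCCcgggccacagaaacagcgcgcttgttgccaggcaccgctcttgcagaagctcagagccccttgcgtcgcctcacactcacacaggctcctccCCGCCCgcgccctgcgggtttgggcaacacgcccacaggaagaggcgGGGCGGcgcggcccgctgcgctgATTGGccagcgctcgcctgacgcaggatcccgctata
Tfrc: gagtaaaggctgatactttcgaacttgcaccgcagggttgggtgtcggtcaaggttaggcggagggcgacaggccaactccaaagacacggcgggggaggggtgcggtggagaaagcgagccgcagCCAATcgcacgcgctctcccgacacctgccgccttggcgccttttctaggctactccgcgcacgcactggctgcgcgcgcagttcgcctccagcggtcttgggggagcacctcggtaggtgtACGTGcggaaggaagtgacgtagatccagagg
The Fth1 window holds 3 GC boxes, whose leftmost bases are at -175, -77 and -30 from the start, and 1 CCAAT box at -7. The Tfrc window holds a CCAAT box at -124 and an ACGTG core at -2, and the other Tfrc window, which overlaps it, holds the same ACGTG site at -228 and GC boxes at -35 and 4. Of 32851 windows of the same length, 34.7% hold a GC box, 36.1% a CCAAT box, 18.5% an ACGTG core and 11.5% the TGACNNNGC core. None of the 8 windows of the member genes held the last. A match describes letters only, and none was tested for binding.

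Fth1 lies on chromosome 19 (GRCm38.p6, 9980600 to 9985111). Its brighter probe set, 1427021_s_at, read 16358 and 17050.4 on the MT-/- DOX arrays, against 12145 and 13148 on the MT-/- saline arrays. In MT+/+ hearts it read 14295 and 15028 after DOX, against 11330.3 and 12299.6 under saline. All 4 DOX arrays were above all 4 saline arrays, as was the case in either direction for 20.1% of all genes. The order of the group means was MT-/- DOX, MT+/+ DOX, MT-/- saline and MT+/+ saline, and the arrays of the 2 saline groups overlapped.

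The rise of Fth1 was log2 +0.35 ± 0.05 averaged over genotypes (adjusted p 0.00199, limma). In MT-/- it was +0.41 ± 0.06 (1.32-fold, adjusted p 0.00993), where 6.79% of genes (6.25% of probe sets) were called, 2.79% higher and 4% lower. In MT+/+ it was +0.30 ± 0.06 (1.23-fold, adjusted p 0.0498), where 2.68% of genes (2.47% of probe sets) were called, 1.24% higher and 1.45% lower. The difference between the genotypes in this response was +0.10 ± 0.09 and did not pass (adjusted p 0.999). The probe set held the same rank on both MT-/- DOX arrays. Quantile normalization therefore gave both the log2 value 14.027, with a spread of 0 in that group. With the deposited scaling the limma change in MT-/- was +0.40 ± 0.06 (adjusted p 0.00979). The averaged call held under all 18 alternatives, but the MT+/+ call was lost whichever array was left out (adjusted p up to 0.255), and the MT-/- call was lost without MT-/- saline 1 (0.0893) or MT-/- DOX 2 (0.0538).

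The other Fth1 probe set, 1448771_a_at, rose as well. It read 13428 and 14176 on the MT-/- DOX arrays, against 10927 and 11452 on the MT-/- saline arrays. The MT+/+ DOX arrays read 12834 and 12822, against 10577 and 11066 on the MT+/+ saline arrays. Its averaged rise was +0.26 ± 0.04 (adjusted p 0.00281), with +0.27 in MT-/- (adjusted p 0.0192) and +0.25 in MT+/+ (adjusted p 0.0447). The suffix of 1427021_s_at marks probes that can match transcripts of more than 1 gene, whereas that of 1448771_a_at marks transcripts of 1 gene. Both probe sets lay at percentile 99.869 or above, and the brightest signal of an array was between 19511 and 20469.5. Whether the Fth1 probe sets were saturated was not tested.

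**Figure D1:**
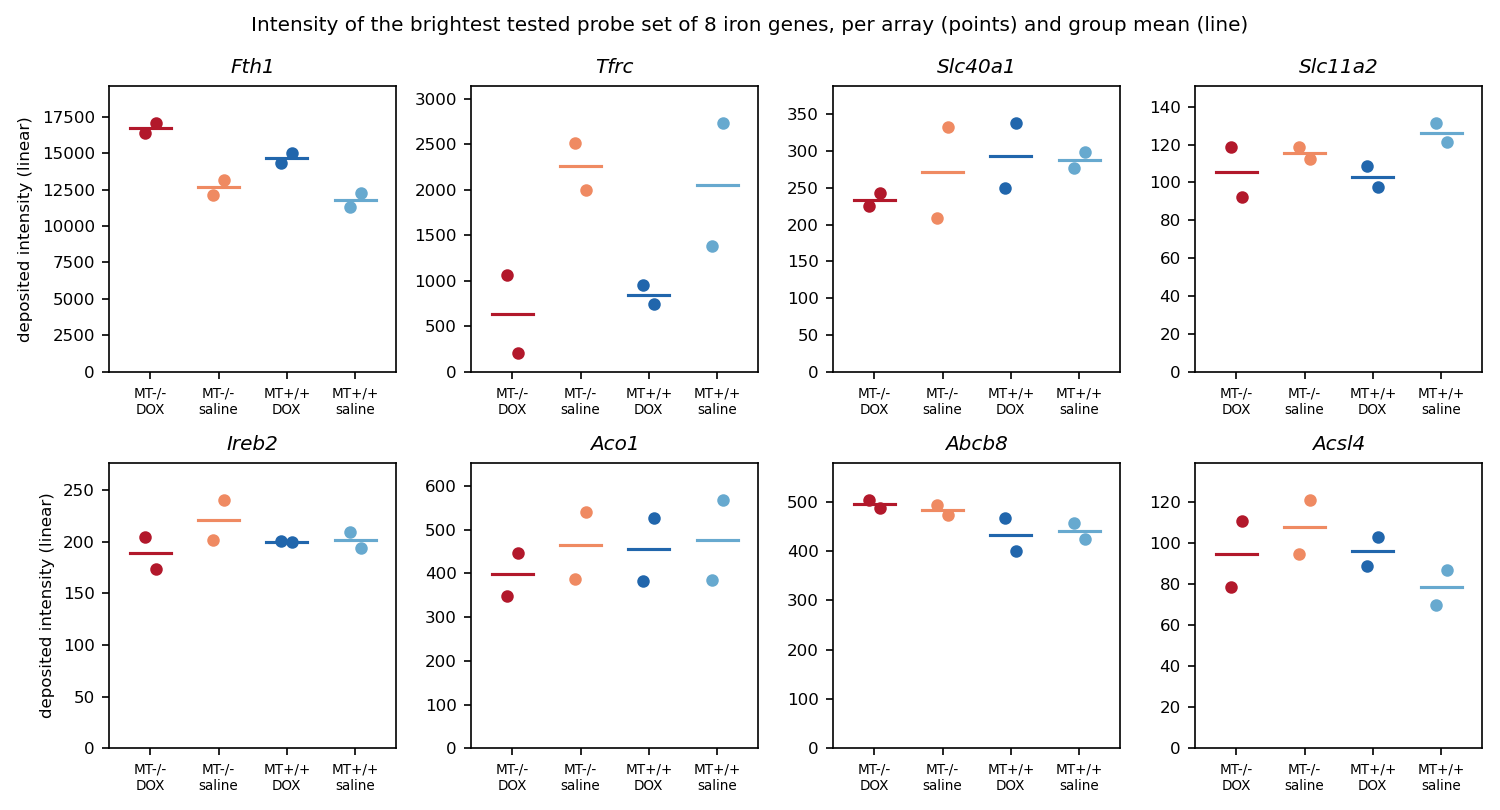
Deposited intensity (linear scale, axes from 0) of the brightest tested probe set of 8 genes, with 1 point per array and a line at the mean of each group of 2 arrays, DOX left of saline within each genotype. Fth1 reads 14295 or more on all 4 DOX arrays and 13148 or less on all 4 saline arrays, Tfrc reads 1064 or less on DOX arrays and 1385 or more on saline arrays, and the arrays of the other 6 genes overlap between treatments.

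The 5 genes whose pattern over the 8 arrays was most like that of Fth1 were Ahsg, Lrrc45, Nol3, Tent5a and Ring1, with Pearson r between 0.985 and 0.989. The points are 4 DOX and 4 saline arrays, a split that all these genes share. Their own log2 changes after DOX, averaged over genotypes, ran between +0.25 (Lrrc45) and +1.46 (Tent5a).

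Ftl1 codes for the ferritin light chain, which helps to form the iron core (chromosome 7, 45457944 to 45459886). Its 3 probe sets are shared with the pseudogene Ftl1-ps2, and 1 of them also with Mir692 genes, so the values below cannot be assigned to Ftl1 alone. Probe set 1422302_s_at read 3865 and 3747 on the MT-/- DOX arrays, against 2365 and 2878 on the MT-/- saline arrays. For MT+/+ the DOX arrays read 2245 and 2515, against 2055 and 2613 on the MT+/+ saline arrays. It rose in MT-/- by +0.52 ± 0.12 (1.43-fold, adjusted p 0.0435), and the change in MT+/+ was -0.03 ± 0.12 (adjusted p 0.948). The difference between these responses was +0.54 ± 0.17 and did not pass (unadjusted p 0.0126, adjusted p 0.999).

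The next shared probe set, 1418364_a_at, read 2216 and 2222 on the MT-/- DOX arrays, against 1306 and 1538 on the MT-/- saline arrays. In MT+/+ hearts it read 1312 and 1355 after DOX, against 923 and 1345 under saline. Its change was +0.63 ± 0.16 in MT-/- (adjusted p 0.0610) and +0.18 ± 0.16 in MT+/+ (adjusted p 0.675), and neither passed. The third, 1422301_at, gave +0.28 ± 0.12 in MT-/- (adjusted p 0.216) and -0.04 ± 0.12 in MT+/+ (adjusted p 0.922). In MT-/- the DOX arrays lay above the saline arrays in all 3 shared probe sets, as 50.9% of all genes were separated there in either direction, whereas in MT+/+ they overlapped in all 3.

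Tfrc lies on chromosome 16 (GRCm38.p6, 32608896 to 32632794). Probe set 1452661_at read 1064 and 206 on the MT-/- DOX arrays, against 2518 and 1995 on the MT-/- saline arrays. After DOX the MT+/+ arrays read 953 and 745, against 1385 and 2731 on the MT+/+ saline arrays. All 4 DOX arrays were below all 4 saline arrays, a separation that 20.1% of all genes had in either direction. MT-/- DOX 2 was the lowest by far. The averaged fall was log2 -1.73 ± 0.44 (adjusted p 0.0328). Within a genotype it did not pass, with -2.19 ± 0.62 in MT-/- (adjusted p 0.0781) and -1.27 ± 0.62 in MT+/+ (adjusted p 0.361). The difference between these 2 responses was -0.93 ± 0.88 (adjusted p 0.999), and 1 array set its sign: it was +0.22 without MT-/- DOX 2 and -2.08 without MT-/- DOX 1.

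With 1 array left out the averaged call of Tfrc held in 3 of 8 cases. It ended at a change of -1.61 without MT-/- saline 1 (adjusted p 0.104), -1.86 without MT-/- saline 2 (0.0625), -1.83 without MT+/+ DOX 1 (0.0696), -1.64 without MT+/+ DOX 2 (0.102) and -1.51 without MT+/+ saline 2 (0.0987), so its size stayed near -1.73 in these 5. Without MT-/- DOX 2, the lowest array, the change was -1.15 (adjusted p 0.0219). Without MT-/- DOX 1 it was -2.30 (adjusted p 9.9e-04). Within MT-/- the change was -3.34 without MT-/- DOX 1 (adjusted p 0.00307) and -1.04 without MT-/- DOX 2 (adjusted p 0.248).

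Tfrc had 5 further probe sets. The second tested, 1422966_a_at, read 309 and 128 on the MT-/- DOX arrays, against 702 and 429 on the MT-/- saline arrays. The MT+/+ DOX arrays read 289 and 193, against 421 and 494 on the MT+/+ saline arrays. It fell by 1.14 ± 0.28 on the log2 scale averaged over genotypes (adjusted p 0.0285), with no overlap between DOX and saline arrays. Affymetrix also placed Tfrc probes along the transcript as RNA quality controls, which were kept out of the main test. Tested in an alternative added after the data were seen, the control for the 5′ end fell (-0.84 ± 0.22, adjusted p 0.0388). Those for the 3′ end and the middle had -0.70 (adjusted p 0.0525) and -0.50 (adjusted p 0.0794), and in all 3 the DOX and saline arrays did not overlap. A dim probe set, 1422967_a_at, had a difference of -0.77 with overlapping arrays and was not tested.

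RNA quality values stand beside this fall. For Tfrc, signal of the 3′ control over that of the 5′ control was 3.16 to 5.12 on the DOX arrays and 2.56 to 3.19 on the saline arrays, with the highest on MT-/- DOX 2. There the 5′ control, itself lower after DOX, read 24.1 (percentile 8.61), so this ratio divides by signal near the floor. The corresponding ratios were 0.913 to 1.18 on DOX arrays and 1.14 to 1.24 on saline arrays for β-actin, and 0.993 to 1.04 and 0.984 to 1.05 for Gapdh. MT-/- DOX 2 had 1.18 for β-actin and 0.993 for Gapdh. The part of RNA quality in the fall of Tfrc was not tested.

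**Figure D2:**
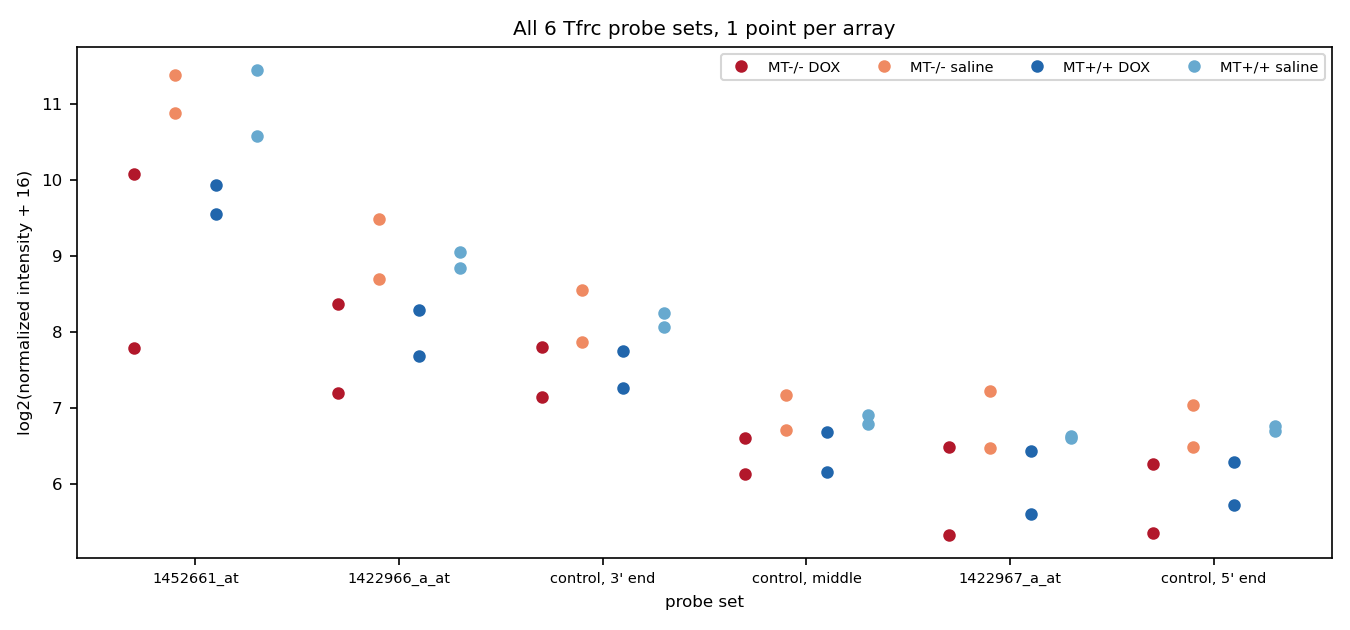
Log2(normalized intensity + 16) of all 6 Tfrc probe sets, 1 point per array, coloured by group with DOX left of saline in each genotype. DOX arrays lie below saline arrays in 5 of the 6 probe sets, and the arrays overlap in 1422967_a_at.

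Bulk heart RNA was measured, so fewer cells of a type and less RNA per cell cannot be told apart. Immature red cells carry much transferrin receptor, and 2 of 5 tested red cell markers fell with Tfrc, Alas2 and the globin gene Hbb-b2, while 0 rose. Over all tested genes 7.79% fell and 6.99% rose. The other red cell markers did not pass, among them the globin gene Hba-a1 at +0.14 (adjusted p 0.283). Over the 7 markers on the table, summed intensity was 478 to 565 on the DOX arrays and 1240.4 to 1933 on the saline arrays, and none of the 7 was listed at 0. Alas2, with up to 1206, and Hbb-b2, with up to 416, were the brightest on the saline arrays. On the DOX arrays Alas2 read 44.2 or less, below the array medians, so it was tested only through its saline arrays. Hbb-b2 went down to 22.9 (percentile 6.83), also below the array medians, so it entered the test through arrays where it was brighter. The part of red cells in the fall of Tfrc was not tested.

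Slc40a1 codes for ferroportin, the iron exporter, which macrophages carry in high amounts (chromosome 1, 45908070 to 45926532). Probe set 1417061_at read 225 and 243 on the MT-/- DOX arrays, against 210 and 333 on the MT-/- saline arrays. In MT+/+ hearts it read 249 and 338 after DOX, against 277 and 298 under saline. The arrays overlapped, and the averaged change was -0.08 ± 0.14 (95% interval -0.39 to 0.24, adjusted p 0.791). The other probe set, 1448566_at, had -0.32 ± 0.12 (adjusted p 0.115), below the threshold only before adjustment (p 0.0247). Its DOX arrays lay below its saline arrays within each genotype (-0.31 in MT-/- and -0.32 in MT+/+), but not over both genotypes together. Neither change passed, and 50.9% of all genes in MT-/- and 46.5% in MT+/+ were separated in either direction. Macrophage markers fell in 9 of 11 tested genes and rose in 0, where 7.79% of all tested genes fell and 6.99% rose. The 2 that did not pass had changes above 0, Cd163 (+0.24) and Lyve1 (probe sets between +0.21 and +0.28). Summed intensity of the macrophage markers was 5607 to 7539 on DOX arrays and 9759 to 12327 on saline arrays. Their part in the Slc40a1 values was not tested.

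Slc11a2 codes for a divalent metal transporter that moves iron out of endosomes (chromosome 15, 100387898 to 100424209). Probe set 1452078_a_at read 119 and 92.3 on the MT-/- DOX arrays, against 119 and 112 on the MT-/- saline arrays. Among MT+/+ hearts the DOX arrays read 109 and 97.5, against 131 and 121 on the MT+/+ saline arrays. The averaged change was -0.18 ± 0.10 (95% interval -0.39 to 0.04, adjusted p 0.286). The DOX arrays lay below the saline arrays only in MT+/+, where 46.5% of all genes were separated in either direction. The 2 other tested probe sets had -0.09 and +0.07 averaged over genotypes, with arrays that overlapped. Within each genotype the DOX arrays of 1417584_at lay below the saline arrays (-0.11 in MT-/- and -0.07 in MT+/+), and neither change passed. In MT-/- 50.9% of all genes were separated in either direction.

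Ireb2 and Aco1 code for the iron regulatory proteins, and the product of Aco1 works as an aconitase when it holds an iron-sulfur cluster. Ireb2 lies on chromosome 9 (54862658 to 54912534) and Aco1 on chromosome 4 (40143265 to 40199009), and neither passed the test. Ireb2 read 205 and 173 on the MT-/- DOX arrays, against 202 and 240.4 on the MT-/- saline arrays, and in MT+/+ hearts it read 200.2 and 199 after DOX, against 209.6 and 194 under saline. Its averaged change was -0.11 ± 0.09 (95% interval -0.32 to 0.10, adjusted p 0.526). Probe set 1456728_x_at of Aco1 read 349 and 447 on the MT-/- DOX arrays, against 388 and 539 on the MT-/- saline arrays, and in MT+/+ hearts 382 and 527 after DOX, against 385 and 568 under saline. In each of the 4 groups replicate 2 was the higher of the pair. The averaged change was -0.14 ± 0.16 (95% interval -0.51 to 0.23, adjusted p 0.648), and the other probe set, 1423644_at, had +0.02 ± 0.09. The suffix of 1456728_x_at marks probes that resemble other sequences.

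Abcb8 codes for a mitochondrial transporter that in mouse heart is tied to iron export from mitochondria (chromosome 5, 24393681 to 24412759). Probe set 1422015_a_at read 504 and 487 on the MT-/- DOX arrays, against 493 and 472 on the MT-/- saline arrays. After DOX the MT+/+ arrays read 466 and 399.7, against 457 and 425 on the MT+/+ saline arrays. The groups lay close together, with an averaged change of -0.01 ± 0.11 (95% interval -0.25 to 0.23, adjusted p 0.969). The other probe set, 1423713_at, had +0.11 ± 0.13 (adjusted p 0.654).

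Acsl4 codes for an acyl-CoA synthetase that activates arachidonic acid for entry into phospholipids and thereby sensitises cells to ferroptosis (chromosome X, 142317993 to 142390802). Probe set 1433531_at read 78.6 and 111 on the MT-/- DOX arrays, against 94.4 and 121 on the MT-/- saline arrays. In MT+/+ hearts it read 88.9 and 103 after DOX, against 69.8 and 86.7 under saline. The estimates had opposite signs, -0.15 ± 0.18 in MT-/- (adjusted p 0.732) and +0.28 ± 0.18 in MT+/+ (adjusted p 0.501), and the difference between them was -0.43 ± 0.25 (adjusted p 0.999). The averaged change was +0.07 ± 0.13 (95% interval -0.22 to 0.36, adjusted p 0.808). The probe set lay between percentiles 40.7 and 63.7, where the added 16 reduces a log2 change.

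**Figure D3:**
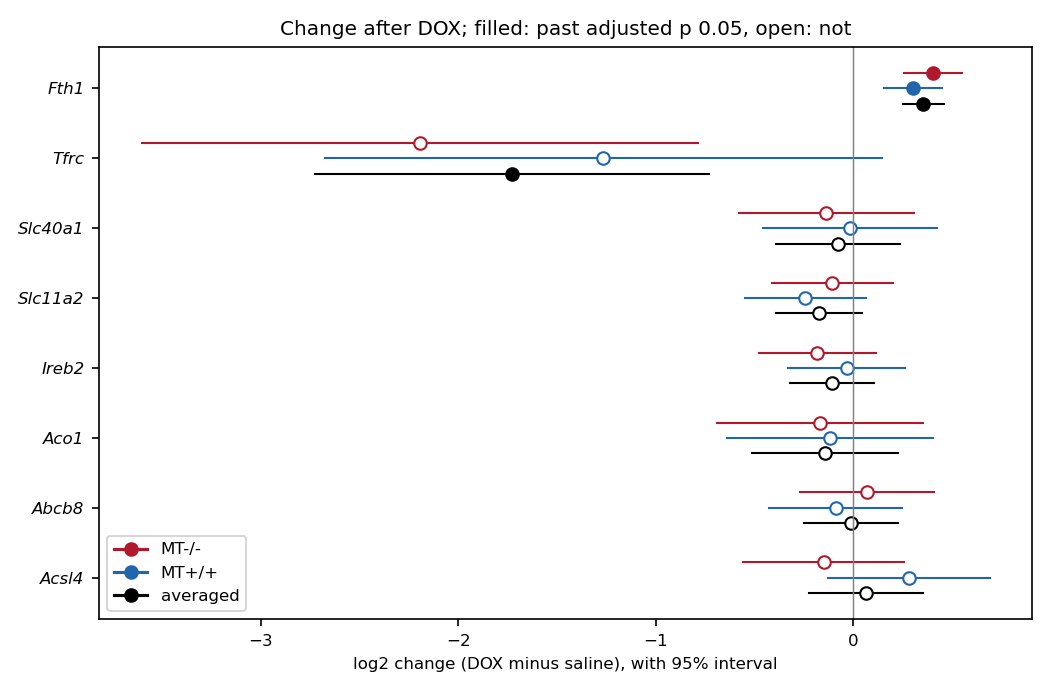
Log2 change (DOX minus saline) of 8 genes in MT-/-, in MT+/+ and averaged over both, with 95% intervals of the limma fit on 2 arrays per group. Filled points passed adjusted p 0.05, and these are the 3 of Fth1 and the averaged one of Tfrc, while the intervals of the other 6 genes all include 0.

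In MT-/- against MT+/+ averaged over treatments 0 of 8 passed, where 0.892% of all genes (0.909% of probe sets) did, and 1 of 8 had an unadjusted p under 0.05, Fth1 at +0.14 ± 0.05 (adjusted p 0.263). Under saline 0 of 8 passed, against 0.177% of all genes (0.186% of probe sets), and 1 of 8 had an unadjusted p under 0.05, Acsl4 at +0.44 ± 0.18 (adjusted p 0.558). The dimmer Abcb8 probe set, 1423713_at, read 343 and 307 on the MT-/- saline arrays, against 221 and 219 on the MT+/+ saline arrays, a difference of +0.47 ± 0.18 (adjusted p 0.532), and 41.7% of all genes had separate arrays in that comparison. The brighter Abcb8 probe set had +0.01 ± 0.15 there, so the probe sets of this gene gave unlike values.

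After DOX 0 of 8 passed in MT-/- against MT+/+, where 0.292% of all genes (0.283% of probe sets) did. Fth1 was the 1 gene with an unadjusted p under 0.05, at +0.19 ± 0.06 (adjusted p 0.495), and the MT-/- DOX arrays lay above the MT+/+ DOX arrays, where 34.2% of all genes were separated in either direction. The brightest shared Ftl1 probe set, 1422302_s_at, had +0.63 ± 0.12 in the same comparison (1.55-fold, adjusted p 0.115), again with no overlap. Tfrc had -0.81 ± 0.62 (adjusted p 0.875) with overlapping arrays, and this value was +0.34 without MT-/- DOX 2 and -1.96 without MT-/- DOX 1. The interaction of genotype with DOX was called for 0% of the 13008 genes and for 0 of the 8 members by limma, and 0 of the 8 had an unadjusted p under 0.05 there.

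Other genes of iron handling moved both ways after DOX. Beside the counts of the lists below, for DOX averaged over genotypes, stand 6.99% of all tested genes that rose and 7.79% that fell. Of 16 tested genes of iron transport and handling, 4 rose and 2 fell, with a median of +0.03. The siderophore-binding gene Lcn2 rose most, at 1737 and 1912 on the MT-/- DOX arrays, against 88.9 and 116 on the MT-/- saline arrays. For MT+/+ the DOX arrays read 208 and 398, against 104 and 139 on the MT+/+ saline arrays. Its averaged change was +2.54 ± 0.19 (adjusted p 1.9e-04), and after DOX it was higher in MT-/- than in MT+/+ by +2.53 ± 0.27 (adjusted p 0.00868). The interaction was +2.71 ± 0.38 and did not pass (adjusted p 0.899).

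Neutrophils carry much Lcn2, and of 5 tested neutrophil markers 3 rose after DOX averaged over genotypes, S100a8, S100a9 and Mmp8, and 0 fell. The same 3 passed in MT-/-, where 2.79% of all genes rose. In MT+/+ 0 of 5 passed, where 1.24% of all genes rose, and the marker median was -0.11. Camp (+0.05) and Ngp (+0.07) did not pass. Mmp8 read between 43.1 and 125.5 over the arrays (percentiles 21.9 to 65.5). Its lowest signal was below the array medians, so it entered the test through arrays where it was brighter. Summed over the 6 markers on the table, intensity was 3577 and 2899 on the MT-/- DOX arrays, against 669.6 and 619 on the MT-/- saline arrays. In MT+/+ hearts it was 922 and 888 after DOX, against 741 and 1396 under saline. None of the 6 was listed at 0, Ltf stayed at percentile 47.7 or lower on every array, and the part of neutrophils in the Lcn2 values was not tested.

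The mitochondrial iron importer Slc25a28 rose by +0.98 ± 0.12 (adjusted p 0.00138), whereas Slc25a37, the importer used mainly by red cell precursors, fell (-0.81 ± 0.16, adjusted p 0.0125). On the 4 DOX arrays Slc25a37 read 145 to 162, against 213 to 355 on the 4 saline arrays. Bmp6, the growth factor that signals body iron to the liver, rose by +0.61 ± 0.12 (adjusted p 0.0114). Hjv, the co-receptor in that pathway, fell by 0.99 ± 0.14 on the log2 scale (adjusted p 0.00304). On the 4 DOX arrays Hjv read 724 to 1238, against 1603 to 1911 on the 4 saline arrays.

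Among 14 tested genes of haem synthesis and breakdown, 2 rose and 3 fell, with a median of -0.22. Alas2, the haem synthesis enzyme of red cells whose mRNA carries an iron-responsive element, read 34.3 and 36.9 on the MT-/- DOX arrays, against 821 and 1206 on the MT-/- saline arrays. Among MT+/+ hearts the DOX arrays read 44.2 and 32.7, against 345 and 1085 on the MT+/+ saline arrays. Its averaged fall was -3.91 ± 0.30 (adjusted p 2.1e-04), beside the fall of red cell markers given above, of which it is one. This fall is measured against DOX signal below the array medians, down to percentile 14. Alas1, the form of that enzyme used in other tissues, fell as well (-0.92 ± 0.16, adjusted p 0.00776). Hmox1, which breaks down haem and frees its iron, rose by +0.81 ± 0.13 (adjusted p 0.00612), and Bach1, a haem-sensing repressor of Hmox1, rose by +0.74 ± 0.12 (adjusted p 0.00459).

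In iron-sulfur cluster assembly 1 of 15 tested genes rose and 3 fell, with a median of -0.08. The scaffold gene Iscu rose by +0.46 ± 0.08 (adjusted p 0.00544). Bola3 (-0.62, adjusted p 0.00462) and Glrx5 (-0.52, adjusted p 0.00506), which act in cluster transfer, and Nubp1 (-0.33, adjusted p 0.0275), of the cytosolic route, fell, but the 3 Nubp1 probe sets ran between -0.33 and +0.17. Cardiomyocyte markers moved too: 4 of 10 fell, 0 rose and 6 did not pass, with summed intensity 116822 to 120979 on DOX arrays and 125421 to 129501 on saline arrays. The 3 probe sets of Tnnt2 ran between +0.06 and +1.07. Among the 6, Myl2 was the brightest probe set on every array. Quantile normalization therefore gave it the same value on all arrays, and it could not pass. The part of cardiomyocytes in these values was not tested.

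Of 13 tested genes that hold ferroptosis back, 2 rose and 0 fell, with a median of +0.08. Slc3a2, a subunit of the cystine importer, read 756 and 770.1 on the MT-/- DOX arrays, against 321 and 402 on the MT-/- saline arrays, and in MT+/+ hearts it read 507 and 535 after DOX, against 304 and 287 under saline. It rose by +0.91 ± 0.09 (adjusted p 7.1e-04). Gclm, a subunit of the enzyme that starts glutathione synthesis, rose by +0.69 ± 0.11 (adjusted p 0.00461). Aifm2, which keeps coenzyme Q reduced, had +0.34 (adjusted p 0.0872) and Dhodh, a mitochondrial enzyme that does likewise, had -0.24 (adjusted p 0.0748). The 3 Aifm2 probe sets ran between -0.07 and +0.34, and the 2 of Dhodh between -0.24 and +0.03.

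Of 11 tested genes that drive or mark ferroptosis, 0 rose and 1 fell, with a median of +0.03. The fall was that of the mitochondrial channel gene Vdac3 (-0.21 ± 0.06, adjusted p 0.0407). The glutathione-degrading gene Chac1 had +0.66 (adjusted p 0.100), Pebp1 had -0.20 (adjusted p 0.0938) and the lipoxygenase gene Alox5 had -0.23 (adjusted p 0.116). Of the 3 other tested long-chain acyl-CoA synthetases, with a median of +0.05, Acsl5 fell (-0.63 ± 0.12, adjusted p 0.00898). Acsl6 had +0.17, with its 2 probe sets between -0.08 and +0.17. Acsl3, which is also among the genes that hold ferroptosis back, had +0.05. Beside Alas2, the tested mRNAs with an iron-responsive element were Epas1, a hypoxia-inducible factor gene that rose (+0.43 ± 0.08, adjusted p 0.0105), Pfn2 (-0.39, adjusted p 0.135) and Cdc42bpa (+0.20, adjusted p 0.181), so that of 4 genes 1 rose and 1 fell, with a median of -0.10. The 2 Cdc42bpa probe sets ran between -0.08 and +0.20.

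Within a genotype fewer of these genes passed, as over all genes, of which 14.8% passed averaged, 6.79% in MT-/- and 2.68% in MT+/+. In MT-/- DOX hearts against MT-/- saline hearts, 2 of 16 transport genes rose and 1 fell, and 2 of 14 haem genes rose and 2 fell. There 2 of 15 cluster assembly genes fell and 2 of 13 genes that hold ferroptosis back rose, beside 2.79% of all genes that rose and 4% that fell. In MT+/+ DOX hearts against MT+/+ saline hearts, 1 gene rose in the transport, cluster assembly and ferroptosis-restraining lists each, and 1 haem gene fell. Of all genes 1.24% rose and 1.45% fell in that comparison. Hmox1 read 251 and 376 on the MT-/- DOX arrays, against 136 and 116 on the MT-/- saline arrays. The MT+/+ values were 144 and 189 after DOX, against 116 and 123 under saline. Its change was +1.17 ± 0.19 in MT-/- (adjusted p 0.0105) and +0.44 ± 0.19 in MT+/+ (adjusted p 0.294). Gclm rose in MT-/- (adjusted p 0.00811), with 576 and 784 on the DOX arrays and 319.6 and 339 on the saline arrays, and had +0.37 ± 0.15 in MT+/+ (adjusted p 0.262). No gene of any list passed the interaction test in limma (unadjusted p under 0.05 in 1 transport gene, 1 haem gene and 2 ferroptosis-restraining genes), so these responses are not shown to differ between genotypes.

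**Figure D4:**
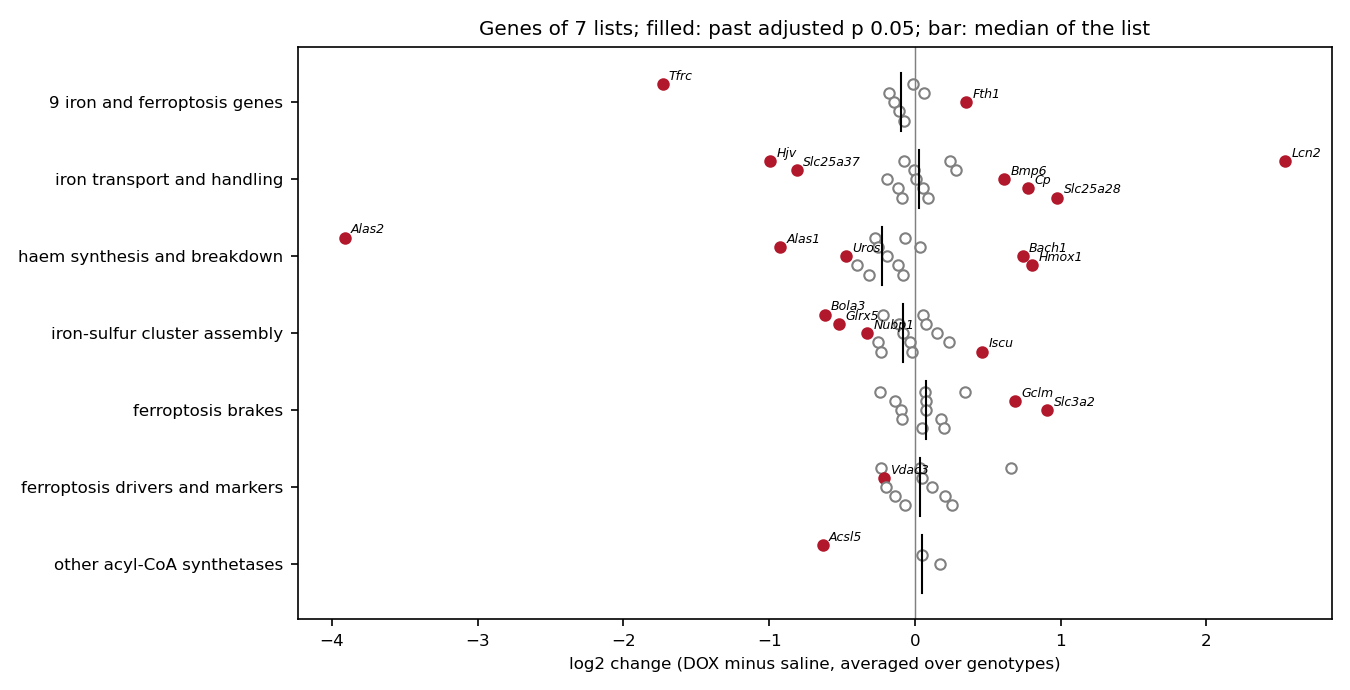
Log2 change (DOX minus saline, averaged over genotypes) of each tested gene in the 8 measured iron genes and 6 further lists, 1 point per gene, filled and named where it passed adjusted p 0.05, with a bar at the list's median. The medians lie between -0.22 and +0.08, the lowest point is Alas2 at -3.91 and the highest is Lcn2 at +2.54.

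Markers of 2 further cell types were lower after DOX where they passed the test. Of 9 tested fibroblast markers 6 fell and 0 rose, and their summed intensity was 10411 to 11831 on DOX arrays and 16838 to 21490 on saline arrays. Dcn (+0.21) and Pdgfra (probe sets between +0.03 and +0.27) had changes above 0, and neither gene passed. Of 8 tested endothelial markers 2 fell and 0 rose, with 4087 to 5497 on DOX arrays and 4857 to 6218 on saline arrays. Vwf (+0.51) and Pecam1 (+0.26) had changes above 0 that did not pass. Their part in the values of the iron genes was not tested.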

How the data were processed

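Values deposited by the authors were 1 linear intensity per probe set and array, made with GCOS 1.4 per the submitters' processing notes. Neither the signal algorithm nor the scaling is given in the sources used here. Per the labels' protocols, biotin-labelled cRNA came from 2 µg of Trizol-extracted RNA. All 45101 probe sets were quantile-normalized and tested as log2(intensity + 16), which understates changes of dim probe sets. The 64 controls were not tested, and probe sets at or above the array median on at least 2 of 8 arrays were kept (24751). limma 3.58.1 (R 4.3.3) was fitted to 4 group means with eBayes and a mean-variance trend, giving 4 residual degrees of freedom and a prior of 4.66, and 7 two-sided comparisons were adjusted by Benjamini-Hochberg. The fit was tested on simulated data. The number of arrays limits the precision: an exact test of 2 against 2 arrays cannot go below p 0.333.

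In the platform annotation 34958 probe sets carried 1 symbol, 932 carried several and 9211 none. The brightest tested probe set stood for a gene. Of 23 member probe sets 15 were tested, 3 were controls and 5 were too dim. The text names every member, up to 4 genes with the smallest p for DOX averaged over genotypes in each of 13 further lists, and the 5 genes most like the called member with the smallest p. For cell type lists fewer are named. Mt1, Mt2, Slc25a37, Tnnt2, Myl2, Ngp and Ltf were named outside this rule. So were the markers Cd163, Lyve1, Dcn, Pdgfra and Pecam1, whose changes after DOX were above 0. Members and lists were chosen with earlier results of these data known. Alternatives covered scaling, pseudocount, filter, moderation, arrays in the fit, replicate block, probe set choice and each array left out.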

Additional observations from a re-analysis of the deposited data

How the results depend on the processing

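The Fth1 rise averaged over genotypes passed under all 18 alternatives run for it (adjusted p 1.0e-04 to 0.0243), and the Tfrc fall kept its direction in all 18 and passed in 13, losing its call only with an array left out. Leaving out 1 array gave between 1 and 2 member genes called for DOX averaged over genotypes, between 0 and 2 for DOX in MT-/- and 0 in every case for DOX in MT+/+. The Fth1 call in MT+/+, at adjusted p 0.0498, also gave way to a count of 0 under median centring (adjusted p 0.0555), a pseudocount of 1 (0.0514), no filter (0.0894), eBayes without trend (0.234), a fit of only the groups compared (0.0556) and, in the alternative added after the data were seen, array controls kept in the test (0.0504). In MT-/- the count was 0 with eBayes without trend, where Fth1 had adjusted p 0.0821. Fits of only the groups compared give nothing separate for the averaged comparisons and the interaction, which use all 4 groups.

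The labels give every group replicates 1 and 2 and do not say what a number shares. Deviations of same-numbered arrays from their group means correlated between 0.36 and 0.54 over the 6 pairs of groups. With the replicate block 2 member genes were called for DOX in MT-/-, Fth1 and Tfrc (adjusted p 0.0229), and 1 for genotype averaged over treatments, Fth1 (adjusted p 0.0465). The block changed no other count of member genes. Over all probe sets it moved the calls to 6712 against 3433 for DOX averaged, 4193 against 1546 in MT-/-, 2732 against 612 in MT+/+, 1206 against 225 for genotype averaged, 384 against 70 after DOX and 209 against 46 under saline, and to 1 against 0 for the interaction. Leaving out 1 array gave between 1709 and 3830 for DOX averaged, 383 and 1995 in MT-/-, 62 and 765 in MT+/+, 88 and 195 for genotype averaged, 23 and 62 after DOX, 15 and 49 under saline, and 0 and 1 for the interaction. Only the groups compared gave 943 in MT-/- and 37 after DOX. The mean of probe sets, over 13008 genes in place of 24751 probe sets, gave 2186 for DOX averaged, 1020 in MT-/-, 128 for genotype averaged and 19 under saline.

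Of 1040 values of single member genes under an alternative, 66 had another sign, none of them past the threshold on either side, 22 lost a call and 3 gained one. With 2 arrays per group, an adjusted p above 0.05 does not show that levels were alike.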

Other observations

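Of the 5 member probe sets that were too dim to test, those of Acsl4 (1451828_a_at and 1418911_s_at) had DOX minus saline differences of +0.19 and +0.04 on the log2 scale averaged over genotypes, that of Slc11a2 (1441709_at) had +0.09 and that of Aco1 (1447080_at) had +0.07. For 1451828_a_at of Acsl4 the DOX arrays lay above the saline arrays in both genotypes, although its signal stayed at percentile 27.5 or lower on every array. Of all tested genes 50.9% were separated in either direction in MT-/-, 46.5% in MT+/+ and 20.1% over both genotypes together.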
